A study of Drosophila melanogaster with 4 samples.

Results

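Isolated H3K4me3 regions of intermediate width were described in third-instar larvae of Drosophila melanogaster. They were chosen by width and by spacing in the combined list of enriched regions. A region was taken when it was 2000 to 5000 bp wide and lay more than 10 kb from the next region on either side, on one of the large chromosome arms (2L, 2R, 3L, 3R, X). Of the 4314 regions of the combined list on these 5 arms, and of 4451 in all, 686 met both conditions. They made up 15.9% of the regions of the 5 arms, 12.7% of the bases these regions covered and 23.0% of the 2983 regions between 2000 and 5000 bp. The remaining 2297 regions of that width, each with a neighbour within 10 kb or at the end of a sequence, are called the other mid-width regions below. Width and gap in the combined list defined the members, so differences in either are given as descriptions. No test was run on any comparison here, since 2 libraries of 1 kind allow none over samples and regions are not replicates.

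The libraries came from third-instar larvae of Oregon-R, genotype wild type, taken from bottles. ChIP replicates 1 and 2 were precipitated with a rabbit polyclonal antibody (ab8580, lot 2) against histone H3 trimethylated at lysine 4, and 2 input libraries, not analysed here, made up the other group. The material was homogenised larval tissue, so each region is an average over all cell types of the animal, and fewer cells with the mark cannot be told apart from less of it per cell. The labels do not say whether separate cultures stood behind the replicates, so the SD between them may be technical.

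Trimethylation of H3 at lysine 4 is laid down by methyltransferases of the COMPASS family and is known from nucleosomes just downstream of the start sites of active genes. In the compact fly genome, active genes often stand close together, and neighbouring or divergent promoters can carry the mark side by side. A region with no other region called close by on either side is, by contrast, a single island of the mark. Positions are on FlyBase release 5. The gene table at hand is on Release 6, so no gene is named for a region, and no sequence is shown because no genome of release 5 was used here.

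The 3 lists held 4451 regions (combined), 4332 (replicate 1) and 4245 (replicate 2), and the read depth behind them is unknown. In the combined list 20 regions, all on the 5 arms, were labelled by the authors as depleted and had scores below 0. The widest of these was 1847 bp, so none could be a member, but 9 sides of members faced one. Without the depleted regions 5 further regions met the rule and no member was lost, which gave 691. The score of a region is the authors' own, with no stated scale, and was used only to describe and rank regions.

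The same rule picked about as many isolated regions in each ChIP library as in the combined list. It gave 713 in replicate 1 and 718 in replicate 2, next to 686 in the combined list. The replicates held 716 ± 3.54 isolated regions, or 23.3% ± 0.643 of their regions between 2000 and 5000 bp (SD, n = 2). The number depended strongly on the gap limit: 1202 regions of the combined list stood more than 5 kb from both neighbours, 361 more than 20 kb, 94 more than 50 kb and 18 more than 100 kb. The member with the smallest gap, on 3R from 20611610 to 20614034, had a neighbour 10045 bp away and a score of 1.77. The mid-width region closest below that limit, on 2R from 3306280 to 3308316, had a gap of 9985 bp and a score of 0.38.

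The narrowest member, on 2R from 8591956 to 8593956, was 2001 bp wide with a score of 0.29, and the isolated region just under the limit, on 2R from 9783568 to 9785566, was 1999 bp wide with a score of 0.29. At the upper limit the widest member, on 3R from 2229696 to 2234676, measured 4981 bp with a score of 2.16. The isolated region just above it, on 3R from 8854650 to 8859658, measured 5009 bp with the same score of 2.16.

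Isolated regions were narrower than the other mid-width regions. Their median width was 2675 bp, with the middle 50% between 2413 and 3250.5 bp. The other mid-width regions had a median of 2867 bp, with the middle 50% between 2519 and 3753 bp. The difference in medians, isolated minus other, was -192 bp in the combined list, and -213 and -205 bp when the rule was applied to the lists of replicates 1 and 2 (mean -209 ± 5.66 bp, SD, n = 2). Members between 3500 and 4000 bp were 7.73% of the isolated regions, against 14.5% of the other mid-width regions, while 34.5% of the isolated regions and 23.2% of the others were between 2000 and 2500 bp. Read by width, 30.8% of the narrowest 500 bp bin was isolated, against 13.7% of the bin from 3500 to 4000 bp and 16.2% of the bin from 4500 to 5000 bp. The widths of the classes overlapped over nearly their whole range.

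Scores were lower in isolated regions as well. The median score was 1.55 in isolated regions and 2.14 in the other mid-width regions of the combined list, a difference of -0.58. It was -0.56 and -0.48 in replicates 1 and 2 (mean -0.52 ± 0.06, SD, n = 2). The lowest isolated score was 0.22 and the highest 3.28, and the other mid-width regions ran from 0.26 to 3.25, so the ranges of the classes were nearly equal. Of the isolated regions 30.5% (209 of 686) had a score under 1, against 16.7% of the others (383 of 2297). Among all regions of the 5 arms ranked by score, the highest-scoring 25% took in 89 of 686 isolated regions and 574 of 2297 others. The difference had the same sign on each of the 5 arms, from -0.42 on 3R (1.73 in isolated and 2.15 in other mid-width regions) to -0.76 on X (1.45 and 2.21).

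**Figure D1:**
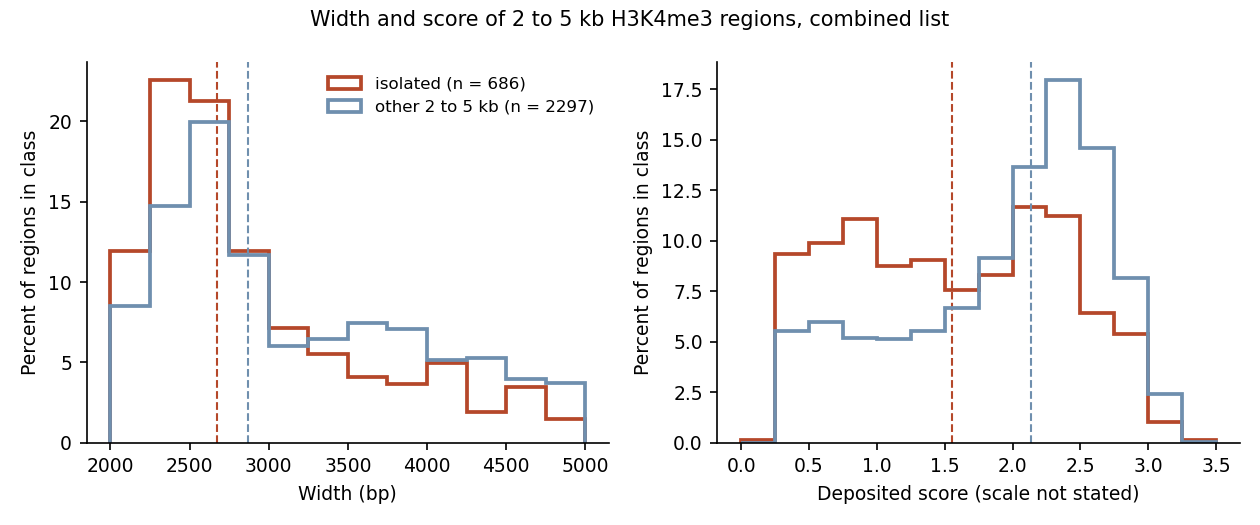
Percent of regions by width (left, bp, bins of 250 bp) and by deposited score (right, scale not stated) for isolated and other mid-width regions of the combined list; dashed lines mark the medians. The isolated regions have medians of 2675 bp and 1.55, against 2867 bp and 2.14 for the others, and the classes overlap over nearly the whole range of both measures.

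Width and score move together in these lists, so scores were also set side by side within width bins of 500 bp. Isolated regions had the lower median in 6 of 6 bins in the combined list and in each replicate list. In the combined list the difference was smallest in the narrowest bin, with a median of 0.76 in 237 isolated regions and 0.84 in 533 others. It was largest between 2500 and 3000 bp, where 228 isolated regions had a median of 1.68 and 728 others had 2.13. Averaged over bins with the isolated regions as weights, the difference was -0.25 for the combined list, -0.30 for replicate 1 and -0.23 for replicate 2. Without regard to width the combined difference was -0.58, so it was smaller within width bins and kept its sign in each of them.

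The lower score came in gradually with distance to the nearer neighbour. Mid-width regions with a neighbour within 1 kb had a median score of 2.17, and those with the nearer neighbour 2 to 5 kb away had 2.19. The median was 1.99 at 5 to 10 kb, 1.83 at 10 to 20 kb, 1.33 at 20 to 50 kb and 1.30 at 50 to 100 kb. Beyond 100 kb it was 1.45, from 18 regions. Scores were therefore level up to 5 kb and lower from there to 50 kb. Median width moved with them, at 2936 bp within 1 kb, 2885 bp at 2 to 5 kb and 2641 bp at 20 to 50 kb, and its part in this course was not tested. The replicate lists had the same course, with medians of 2.34 and 2.19 at 2 to 5 kb and of 1.51 and 1.45 at 20 to 50 kb in replicates 1 and 2. Single regions scattered widely around this: Spearman's rho between nearer gap and score was -0.20 across the 2974 mid-width regions with a neighbour on either side, and -0.19 across the 686 isolated ones. These points share libraries and thresholds, and the values describe the list only.

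**Figure D2:**
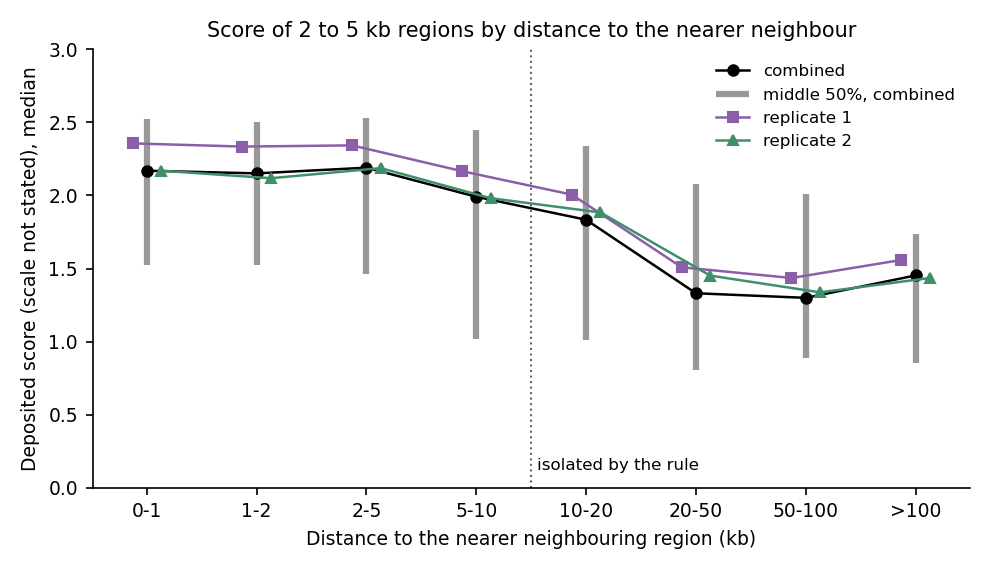
Median deposited score (scale not stated) of regions between 2 and 5 kb wide, by distance to the nearer neighbouring region in kb, for the combined list and each replicate list; grey bars hold the middle 50% of the combined list, and regions right of the dotted line are isolated by the rule. In the combined list the median is 2.19 at 2 to 5 kb and 1.33 at 20 to 50 kb, and both replicates follow it.

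The extremes of the score show how varied the isolated regions were. The highest-scoring member lay on X from 19413680 to 19418384, was 4705 bp wide and scored 3.28, with 3.44 and 3.20 in replicates 1 and 2. Its neighbours were 12.1 and 39.6 kb away. The next were on X from 9211470 to 9215126, 3657 bp wide with a score of 3.19, and on 3L from 4038534 to 4042312, 3779 bp wide with a score of 3.13. All 3 were wider than the median member. At the other end, the region of 3L from 7846596 to 7849180 scored 0.22, with 0.36 and 0.30 in the replicates, although it was 2585 bp wide. The members starting at 8591956 on 2R and at 21374926 on 3L scored 0.29 and 0.30 and were 2001 and 2011 bp wide. The 3 lowest-scoring members were found in both replicates, but only the lowest met the rule in each. The 2R member was under 2000 bp in both, at 1982 and 1935 bp. The member starting at 21374926 was so in replicate 2, at 1887 bp.

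The widest members scored below the median of 2.36 that isolated regions of 4500 to 5000 bp had. After the 4981 bp region of 3R named above came another on 3R from 9604432 to 9609402, which was 4971 bp wide and scored 1.94. The third lay on 2L from 3710176 to 3715122, was 4947 bp wide and scored 2.23. It stood 52.4 and 55.8 kb from its neighbours. The replicates gave it widths of 4867 and 4876 bp.

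The arms carried isolated regions at similar densities. Arm 2L had 132 (5.74 per Mb), 2R had 126 (5.96 per Mb), 3L had 152 (6.19 per Mb), 3R had 163 (5.84 per Mb) and X had 113 (5.04 per Mb). As a share of the mid-width regions of the arm this came to 19.6% for 2R, with an exact Clopper-Pearson 95% interval of 16.6% to 22.9%, and to 21.3% for X (17.9% to 25.1%). Arm 2L had 24.9% (21.2% to 28.8%), 3R 24.0% (20.8% to 27.4%) and 3L, the highest, 25.3%. These intervals cover counting error only, and those of all 5 arms overlap. The replicate lists gave 20.6% ± 0.383 for 2R, 20.6% ± 1.60 for X and 25.9% ± 0.477 for 3L (SD, n = 2 each). Differences between arms were not tested. The width difference was -346 bp on X, with medians of 2655 bp in isolated and 3001 bp in other mid-width regions, and between -99 and -215 bp on the autosomal arms. Median widths of the isolated regions themselves lay close together, from 2645 bp on 2L to 2735 bp on 3R.

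Along the arms, the share of isolated regions varied over a smaller range than that of the other mid-width regions. Each arm was cut into bins of 10% of its length from the centromere end, which is the high end of 2L, 3L and X and the low end of 2R and 3R. The bins held between 8.31% and 11.5% of the isolated regions, and between 7.05% and 13.3% of the others. The innermost bin held 66 isolated regions (9.62%) and 162 others (7.05%), whereas the next bin held 70 isolated regions (10.2%) and 306 others (13.3%). Of the mid-width regions in these bins 28.9% and 18.6% were isolated. In the replicates the figures were 28.3% and 17.4% for replicate 1 and 27.8% and 18.3% for replicate 2. Dense bins have a lower isolated share through the gap limit, so these shares cannot be told apart from an effect of the rule.

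**Figure D3:**
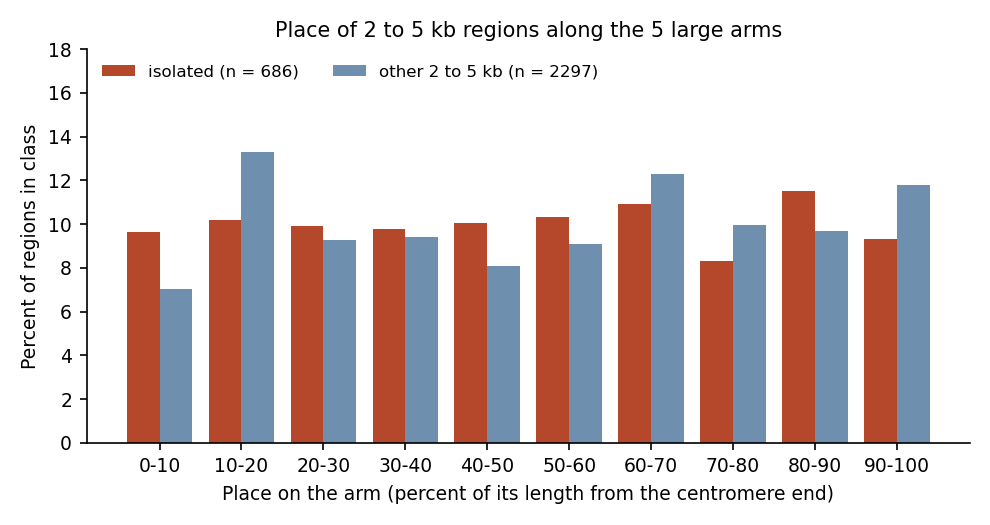
Percent of isolated and of other mid-width regions (combined list) in each bin of 10% of the arm's length, counted from the centromere end and pooled over 5 arms. The isolated regions lie between 8.31% and 11.5% in every bin, while the others range from 7.05% in the innermost bin to 13.3% in the next.

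Pooled over the arms, the innermost 20% held 19.8% of the isolated regions (136 of 686, exact 95% interval 16.9% to 23.0%) and 20.4% of the others (468 of 2297, 18.7% to 22.1%). By arm the sign of the difference varied: isolated regions had the higher share on 3L (23.0% of isolated and 16.9% of other mid-width regions) and 2R (23.0% and 19.8%), and the lower on 2L (20.5% and 24.1%), X (12.4% and 16.8%) and 3R (31 of its 163 isolated regions and 24.0% of the others). The outermost 20% held 20.8% of the isolated and 21.5% of the other mid-width regions. The last 1 Mb next to the centromere held 31 isolated regions (4.52%) and 58 others (2.53%). These shares were 4.49% and 2.37% in replicate 1, and 4.04% and 2.48% in replicate 2. The last 3 Mb held 12.7% of the isolated regions and 9.93% of the others, so the sign of the pooled difference depended on how much of the arm was taken. The shares by arm rest on few regions. On 3L 5 of 6 mid-width regions in that last 1 Mb were isolated, and 9 of 18 on each of 2L and 2R, against 6 of 33 on 3R and 2 of 14 on X. Regions of any width there numbered 6 on 3L, 20 on 2L, 18 on 2R, 42 on 3R and 17 on X. The gap limit lowers the isolated share where regions are dense. Place along the arm therefore cannot be told apart from an effect of the rule.

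The number of isolated regions varied little between sparse and dense parts of the arms compared with that of the other mid-width regions. In 117 windows of 1 Mb the count of all regions ran from 8 to 65, with a median of 36. The part of each arm beyond its last whole window was left out, which on 3L held the members starting at 24020722 and 24223816. The count of isolated regions ran from 1 to 13, with a median of 6, and no window was without one. In the 6 windows with under 20 regions it averaged 6.17 ± 1.47 (SD over windows), and in the 13 windows with 50 or more it averaged 6.31 ± 2.66 (SD over windows). The other mid-width regions averaged 4.83 in the first of these sets of windows and 31.3 in the second. The isolated share of mid-width regions was accordingly 56.1% in the sparsest windows, 24.4% in windows with 30 to 39 regions and 16.8% in the densest.

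Replicates 1 and 2 averaged 5.36 and 5.42 isolated regions in windows with under 20 regions, 6.45 and 6.57 in windows with 40 to 49 and 5.20 and 5.56 in windows with 50 or more. They were thus highest at 40 to 49 regions, where the combined list averaged 5.85, and not in the densest windows. Spearman's rho between all regions and isolated regions over windows was 0.07 for the combined list, 0.10 for replicate 1 and 0.15 for replicate 2, as a description of 117 windows that share their libraries. The gap limit lowers the isolated share wherever regions are dense, so the small variation cannot be told apart from an effect of the rule. The window with most isolated regions was 3L from 21000001 to 22000000, with 13 among 50 regions. The windows with fewest were neighbours on X, from 20000001 to 21000000 and from 21000001 to 22000000, with 1 each among 23 and 25 regions.

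**Figure D4:**
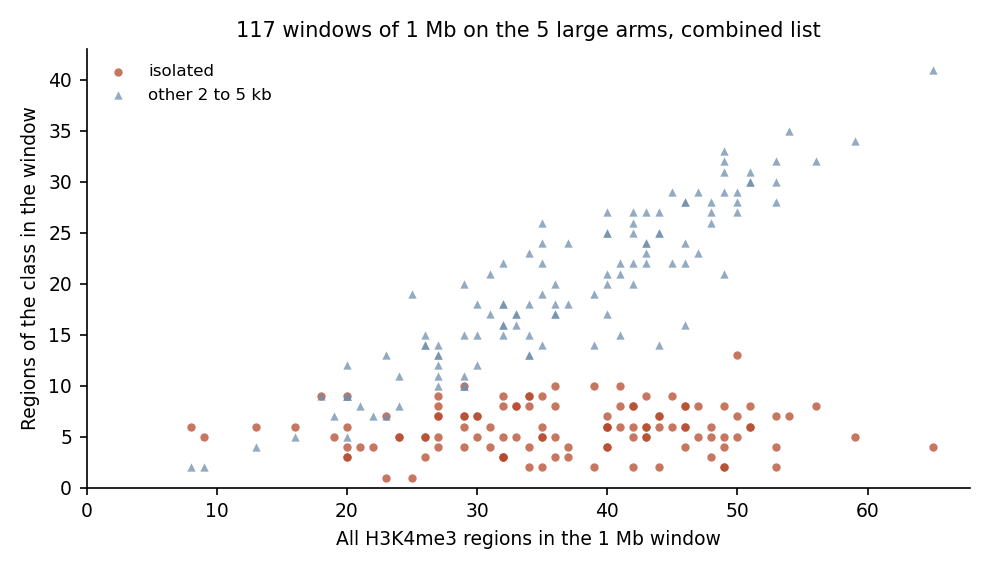
Number of isolated and of other mid-width regions in each of 117 windows of 1 Mb, against the number of all regions in the window (combined list). The isolated regions stay between 1 and 13 per window from the sparsest to the densest windows, while the other mid-width regions climb with the number of regions.

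Isolated regions often stood at the edge of long stretches without any region. A stretch over 100 kb bordered 173 of the 686 isolated regions (25.2%), against 137 of the 2297 other mid-width regions (5.96%). Since the rule asks for a gap over 10 kb on either side, this count favours the isolated class by construction. Among sides that faced a gap over 10 kb, the share facing a stretch over 100 kb was 13.9% for isolated regions (191 of 1372 sides) and 9.71% for the others (137 of 1411 sides). It was 11.2% for regions under 2000 bp and 11.6% for regions over 5000 bp. Isolated regions held 40.8% of the 468 sides of the 234 stretches over 100 kb, and 34.2% of the 4012 sides of all gaps over 10 kb.

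Gaps over 10 kb tended to be longer where they touched an isolated region. The 1135 such gaps had a median of 31.1 kb, and 152 of them (13.4%, exact 95% interval 11.5% to 15.5%) exceeded 100 kb. The 871 gaps over 10 kb that touched none had a median of 24.4 kb, and 82 of them (9.41%, 7.56% to 11.6%) exceeded 100 kb. Gaps with an isolated region at both ends were longer again, with a median of 40.1 kb and 16.5% over 100 kb. The replicate lists gave 14.3% and 14.5% for gaps that touched an isolated region and 10.2% and 9.93% for gaps that touched none. The intervals in the combined list overlap slightly and cover counting error only, and neighbouring gaps are not independent. By the rule, a gap that touches a member lies beside a further gap over 10 kb, which favours sparse places. The difference in length therefore cannot be told apart from an effect of the rule. The same holds for the shares of sides given above.

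**Figure D5:**
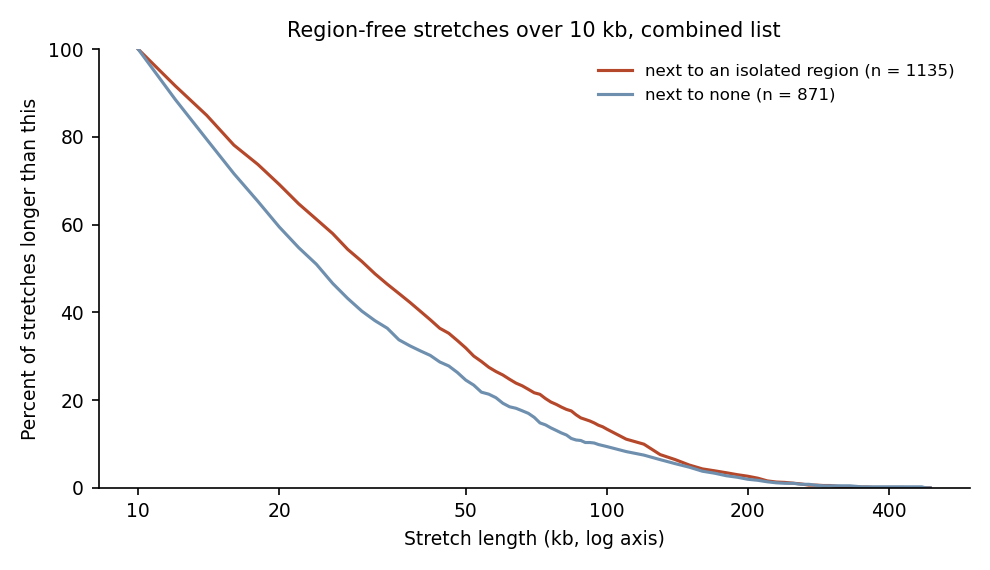
Percent of region-free stretches over 10 kb that are longer than the length on the x axis (kb, log axis), for stretches next to at least 1 isolated region and next to none, combined list. At 100 kb the curves stand at 13.4% and 9.41%, and they come close near 200 kb, at 2.64% and 1.95%.

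The 2 longest stretches, on 2L from 15772047 to 16250003 and from 16911345 to 17382553, had no isolated region at either end (478 and 471 kb). Of the 10 longest, 1 had isolated regions at both ends, the stretch of 2L from 13905417 to 14232487 (327 kb), and 5 had one at a single end. Gaps over 200 kb were 2.64% of those that touched an isolated region and 1.95% of the others, and these shares were 2.82% and 2.73% in replicate 1 and 3.32% and 2.65% in replicate 2.

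Distances to long stretches differed less than the share at an edge. With regions at an edge counted as 0 kb away, the median distance to the nearest stretch over 100 kb was 105 kb for isolated regions and 125 kb for the other mid-width regions, and 67.8% and 63.8% lay within 200 kb of one. The rule favours isolated regions at an edge, so these differences cannot be told apart from its effect. Distances of regions away from an edge were not compared separately. Isolated regions at the edge of a stretch scored a median of 1.46 (173 regions) and those away from one 1.61 (513 regions). Their median widths were 2685 and 2673 bp. Other mid-width regions scored 2.12 at an edge (137 regions) and 2.14 away from one (2160 regions), so the lower score of the isolated class was present in both places.

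Members lying between long stretches on either side were few. Altogether 18 isolated regions had more than 100 kb free of regions on both sides. The largest distance to the nearer neighbour, 200 kb, belonged to a pair of members of 3L that faced each other across the same stretch. One ran from 24020722 to 24023616, 0.521 Mb from the centromere end of the sequence, was 2895 bp wide and had a score of 1.99. Its other neighbour was 288 kb away, and it scored 1.84 and 2.11 in replicates 1 and 2. The other ran from 24223816 to 24226180, was 2365 bp wide, scored 1.34 and had its other neighbour 303 kb away. The third was on 2L from 14687614 to 14689924, in the interior of the arm 8.32 Mb from the centromere end, with stretches of 194 and 306 kb, a width of 2311 bp and a score of 0.92. These 3 regions were isolated in each replicate list as well.

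Counted over all sides, isolated regions had isolated neighbours more often than other mid-width regions did. Of the 1372 neighbours of members 34.5% were isolated themselves, 35.3% were other mid-width regions, 16.7% were narrower than 2000 bp and 13.4% were wider than 5000 bp. Of the neighbours of other mid-width regions 10.5% were isolated, 60.1% were other mid-width regions, 12.8% were narrow and 16.6% were wide. An isolated neighbour can only lie across a gap over 10 kb, which the rule gives every side of a member. Among sides facing such a gap, 474 of 1372 in members and 485 of 1411 in other mid-width regions faced an isolated region. The difference between 34.5% and 10.5% therefore cannot be told apart from an effect of the rule. Members formed 449 runs of consecutive isolated regions, of which 308 were single regions. The other 378 members (55.1%) stood in runs of 2 or more, and 206 (30.0%) in runs of 3 or more.

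The longest run was on 3L near the centromere, where 8 members in a row covered 1108 kb from 23118236 to 24226180, with scores from 1.34 to 2.44. On 2L 7 members in a row lay within 449 kb from 22470134 to 22919060, close to the end of the sequence on the centromere side, with scores from 0.47 to 2.49. On 3L another 7 lay within 468 kb from 14064066 to 14532530, in the middle of the arm, with scores from 0.35 to 2.31. Low- and high-scoring members thus lay in the same run in both runs of 7.

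Isolated regions were nearly all recovered in the replicate lists, as were the other mid-width regions. Of the isolated regions 685 of 686 overlapped a region of each replicate by at least 1 bp (99.9%, exact 95% interval 99.2% to 100.0%). Of the other mid-width regions 2295 of 2297 did (99.9%, 99.7% to 100.0%). Over all regions of the combined list on the 5 arms this share was 92%, and it was 43.0% for the 598 regions narrower than 2000 bp. The lowest-scoring 25% of all arm regions held 168 members, and all 168 were found in both replicates, as were 316 of 317 other mid-width regions and 257 of 594 narrow regions. The combined list is the authors' list for the replicate set, so this recovery is not independent of it.

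Each of the 685 recovered members had exactly 1 partner in either replicate, and 0 were split into several. Of the other mid-width regions 3 were split in replicate 1 and 5 in replicate 2. The ends of the partners differed between replicates by a median of 34 bp in isolated regions and 37.5 bp in the others, as the mean of both ends. The partners shared a median of 97.5% of the bases that either covered in isolated regions and 97.4% in the others. Their widths differed by more than 500 bp in 10 members and in 35 of the others. The combined region was wider than the mean of its partners in 684 of 685 members and in 2281 of 2283 of the others, by a median of 51.5 and 57.5 bp.

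A few members had ends that moved between the libraries. The region of 3L from 7520906 to 7525040 was 2760 bp wide in replicate 1 and 4315 bp in replicate 2, with scores of 2.39 and 1.78. On 3R, the member from 22812916 to 22815870 was 1622 and 2988 bp wide, with scores of 0.35 and 0.38. On 3L, the member from 13105838 to 13110690 was 4071 and 4480 bp wide, with scores of 1.30 and 1.10. In all, 23 of 685 members (3.36%) had ends more than 200 bp apart on average, against 66 of 2283 others (2.89%).

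Scores of the partners ranked almost alike in the replicates, with a Spearman's rho of 0.99 across the 685 isolated pairs and 0.98 across 2283 others, as a description across regions of 1 pair of libraries. Replicate 1 had the higher score in 86.9% of isolated pairs and 92.0% of the others, with median differences (replicate 1 minus replicate 2) of 0.15 and 0.19. In regions split by combined score into classes of 25%, the difference was 0.10 in isolated regions and 0.11 in the others in the lowest class, and 0.23 and 0.24 in the highest. The offset was thus larger in higher-scoring regions of either class.

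Isolation itself was also kept in most cases. The partners of 658 members (95.9%) met the whole rule in replicate 1 and those of 648 (94.5%) in replicate 2, and 635 (92.6%, exact 95% interval 90.3% to 94.4%) did so in both. The 27 and 37 recovered members that did not were lost by width, being outside 2000 to 5000 bp there, and 0 were lost by a gap. The combined list lacks few regions of the replicate lists on these arms. Its members were also wider than the mean of their partners in 684 of 685 cases. Losses by a gap were therefore unlikely from the outset, and their absence says little about how stable isolation is. The 50 recovered members that missed the rule in at least 1 replicate were 2055 bp wide and scored 0.38 at the median, against a median of 2723 bp and 1.67 in the 635 that met it everywhere. Since all of these losses were by width, this group was in effect picked for widths near 2000 bp. Width and score move together, so the lower medians cannot be told apart from that choice. Conversely, 55 regions of replicate 1 and 70 of replicate 2 were isolated in their own list and not in the combined one. The combined list had a neighbour within 10 kb of 47 and 64 of them.

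The only member missing from the replicates lay on 3R from 3533324 to 3535332. It was 2009 bp wide, scored 1.94 and had free stretches of 165 and 84.1 kb on its sides. Neither replicate list had a region there. On the 5 arms 152 combined regions were in neither replicate list, at a median of 1239 bp and a score of 0.23. Among them this member was the only one that reached 2000 bp, and none of the others had a score as high.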

How the data were processed

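H3K4me3 ChIP-seq of whole third-instar Oregon-R larvae was analysed from 3 region lists: 1 for each ChIP replicate and 1 combined list. Lists of the 2 input libraries were not used here. The authors deposited for each region its first and last base on FlyBase release 5, per the file headers, and a score of unstated scale. The submitters' processing notes name Bowtie 0.12.7. Not given in the sources used here are the region caller, its threshold, the use of the input and how replicates were merged.

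Regions of 2L, 2R, 3L, 3R and X were sorted by start, and a gap was the next start minus the end minus 1. All listed regions counted as neighbours, including those labelled as depleted. The first and last region of a sequence were never isolated. Overlap meant at least 1 bp. Stretches were gaps over 100 kb, and windows were 1 Mb from the first base, with the remainder at the end of each arm left out. Medians, shares and exact Clopper-Pearson 95% intervals came from Python 3.11.15 with scipy 1.17.1, pandas 2.3.3 and numpy 2.4.6, and plots from matplotlib 3.10.9. The depth behind a region is unknown. The rule and overlap code was tested on simulated lists. Alternatives were other gap limits, narrow or depleted regions left out, joined neighbours, a stricter overlap and each replicate alone.

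The members and the comparisons were chosen with earlier results of these data known. Named regions were the 3 most remote, 3 widest, 3 highest-scoring and 3 lowest-scoring members, those missing from a replicate list and those at the limits of the rule. Members with the largest end differences, and the runs, stretches and windows named, were picked with their values in view.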

Additional observations from a re-analysis of the deposited data

Results flagged for a closer look

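Outside the 5 large arms, 43 regions of the combined list met the same rule. They are data that the comparisons above do not use, since the rule covers the 5 large arms only. Of these, 15 lay on the sequence named U, 12 on chromosome 4, 6 on 2RHet and 5 each on 3LHet and 3RHet. The regions between 2000 and 5000 bp numbered 22 on U, 39 on chromosome 4, 10 on 2RHet, 15 on 3LHet and 7 on 3RHet. None of the 2 regions of 2LHet, the 3 of XHet and the 4 of YHet met the rule. Whether gaps on U and on the sequences with Het in their name measure distance in the genome was not tested. There were 137 regions outside the arms, 101 of them between 2000 and 5000 bp.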

How the results depend on the processing

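The difference in width and the difference in score kept their direction in every alternative run. With a gap limit of 5000 bp there were 1202 isolated regions, the differences were -171 bp and -0.41, 19.1% lay in the innermost 20% of the arms and 9.35% of the gaps over that limit that touched them exceeded 100 kb. With 20000 bp these values were 361, -210 bp, -0.77, 20.8% and 20.0%; the lower bound on the gap sets the last value in part. Leaving out regions under 2000 bp before gaps were taken gave -205 bp, -0.50, 18.6% and 16.1%, with 805 isolated regions. Within width bins the score difference was -0.25. The last 3 Mb next to the centromere held 12.7% of the isolated and 9.93% of the other mid-width regions, which turned the sign of the comparison over 20% of the arm (19.8% and 20.4%). The share of gaps was 31.9% over 50 kb and 2.64% over 200 kb. The lists that leave out 1 replicate gave -213 to -205 bp, -0.56 to -0.48, 18.2% to 18.7% and 14.3% to 14.5%. Joining neighbours within 500 bp and leaving out depleted regions moved the width, score, centromere and gap results by less than 1 SD between replicates. The count moved by less than 1.5 times, and recovery stayed within its exact 95% interval. Counting regions of either replicate list as further neighbours changed no value. It could not change membership, since no replicate region that the combined list lacks lay within 10 kb of a member. This alternative and the one without depleted regions were chosen after seeing the data. An overlap of 50% of both regions left recovery at 99.9%. Apart from the last 3 Mb, the 50 kb and 200 kb limits and the width bins, which change what is measured, the cause of these shifts was not tested. No paired analysis was possible because no test was run and the inputs, whose replicate numbers match those of the ChIP libraries, were not used here. Depth is unknown and limits every gap: a stretch without a region may hold weak signal under the threshold.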

Other observations

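Of the 686 members, 15 met the rule in neither replicate list, the member of 3R without a partner among them. The 50 recovered members that missed the rule in at least 1 replicate had a median distance to the nearer neighbour of 21.1 kb. This is close to the 20.9 kb of the 635 members that met the rule in all 3 lists, while widths and scores were lower in the 50, with medians of 2055 bp and 0.38 against 2723 bp and 1.67. The 50 missed the rule by width alone, so their lower widths and scores cannot be told apart from how they were picked.

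No region of a single replicate list filled the surroundings of a member: the 3 regions of replicate 1 that the combined list lacks on the 5 arms were on 2L from 7729889 to 7731219, on 2R from 6159165 to 6160468 and on X from 8936248 to 8937754, and 0 members lay within 10 kb of any of them.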
